A study of Arabidopsis thaliana with 4 samples.

Results

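The 54 genes described here are the auxin response and auxin synthesis genes of Arabidopsis thaliana that were chosen by family membership: all 29 Aux/IAA genes, 15 auxin response factor genes (ARF1 to ARF11 and ARF16 to ARF19), and the synthesis genes TAA1 and YUC1 to YUC9. They are 54 of 32627 genes on a NimbleGen expression array hybridized with Cy3-labelled total RNA of seedlings. The choice of families was made with earlier results of these data known. The wild type was Col-0 and flowered normally, per the labels. The other genotype was a late-flowering Col-0 line carrying 35S::JMJ30-HA, in which the 35S promoter, active in most plant cells, drives the histone demethylase gene JMJ30 with an HA tag. Each genotype had 2 arrays, from untreated seedlings harvested 13 days after germination on soil at 22 °C with 16 h of light and 8 h of dark. The labels do not state the hour of harvest, the number of seedlings in an extract or the number of transgenic lines used.

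Auxin acts by removing repressors. Aux/IAA proteins bind ARF transcription factors and recruit TOPLESS corepressors; auxin joins Aux/IAA proteins to the TIR1 and AFB receptors, which mark them for degradation, and the freed ARF proteins then act on their target genes. Many Aux/IAA genes are themselves such targets, so their transcripts rise within minutes to hours of an auxin stimulus and serve as readouts of the response. Indole-3-acetic acid, the main auxin, is made from tryptophan by TAA1 and the YUC flavin monooxygenases, and in seedlings light, shade and warmth act on growth partly through YUC8, IAA19 and IAA29. JMJ30 protein has been reported to bind ARF7 and ARF19 during callus formation from leaf explants, which is background and was not measured here.

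JMJ30 (AT3G20810) read 705 and 567 in wild-type seedlings and 1054 and 721 in transgenic seedlings, in units of normalized intensity. Transgenic readings exceeded wild-type readings on all arrays, with a log2 difference of 0.46 ± 0.27 (SE, n = 2 per genotype) that did not pass the test described below (adjusted p = 1.0), and whether its probes read the transgene is not known, since their positions are not stated. Arrays with equal replicate numbers are called set 1 and set 2, after the design text, which speaks of independent sets; it does not say outright that a number marks a set. The 4 arrays had median intensities of 25.6 to 26.6, and the distribution over genes had modes at 4.38 and 187 with a valley at 14.3. A gene whose mean lay under that valley in both genotypes is called near background, a description of its reading and not a detection call. Of the tissue markers, 8 of 8 leaf genes read above the valley, with summed intensities of 6916 and 7183 in wild-type seedlings and 6415 and 7182 in transgenic seedlings. Of 8 root markers 6 were near background (PLT1, PLT2, WOX5, PRP3, NRT2.1 and IRT1), and the sum over all 8 was 224 to 227 on wild-type and 262 to 273 on transgenic arrays. Most of that sum came from SHR and SCR, which act in the inner tissues of the root and also in the shoot, read above the valley and were higher in the transgenic line in both sets without passing the test; SCR read 146 and 124 against 160 and 160. Of 6 apex and flower markers STM read above the valley, with sums of 43.6 to 43.7 and 41.5 to 57.8. The seedling RNA thus gave little signal for the 6 dim root genes, and fewer cells of a type cannot be told apart from less RNA per cell.

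None of the 54 genes passed the genotype test, limma on log2 values with Benjamini-Hochberg adjustment over all 32627 genes and a call at an adjusted p below 0.05. The background was also 0% (0 of 32627 genes), and every member had an adjusted p of 1.0. At an unadjusted p below 0.05 limma gave 4 members, IAA6, IAA19, IAA29 and YUC8, all lower in the transgenic line, beside 2.99% of all genes (1.58% lower and 1.4% higher). Of the 4, IAA19 and IAA29 read above the valley, 2 of 39 such members, where 0.623% of 18135 genes had such a p. Because the members were chosen with earlier results of these data known, these counts are a description and not a test of the group. With the replicate number as a block 6 members had one, beside 6.01% of all genes. The 2 added were IAA5, lower, and IAA20, higher in the transgenic line, both near background. Of the 54 members 29 read lower and 25 higher, beside 50.8% and 49.2% of all genes, and the median log2 difference was -0.021 over the members and -0.0039 over all genes. Both transgenic arrays lay below both wild-type arrays for 9 members, where the background was 13.3%: IAA5, IAA6, IAA9, IAA10, IAA19, IAA29, IAA32, YUC1 and YUC8. They lay above for 6, where it was 12.7%: IAA20, IAA34, ARF3, ARF4, ARF8 and ARF18. Separation of the arrays was thus about as common among these genes as on the whole array.

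The intervals show which sizes of difference the readings leave possible. Of the 39 members above the valley, 36 had a 95% interval that stayed within a 2-fold difference either way, where 85.9% of 18135 such genes did. IAA17, IAA29 and TAA1 were the 3 exceptions when genotype was the only term. Adding replicate number to the fit moved the interval inside 2-fold for IAA17 (-0.76 to 0.25) and TAA1 (-0.90 to 0.40). IAA29 remained an exception in that fit, at -1.44 to -0.36. These intervals are not adjusted for the number of genes, and with 2 arrays per genotype they rest on the spread borrowed from all genes by limma.

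**Figure D1:**
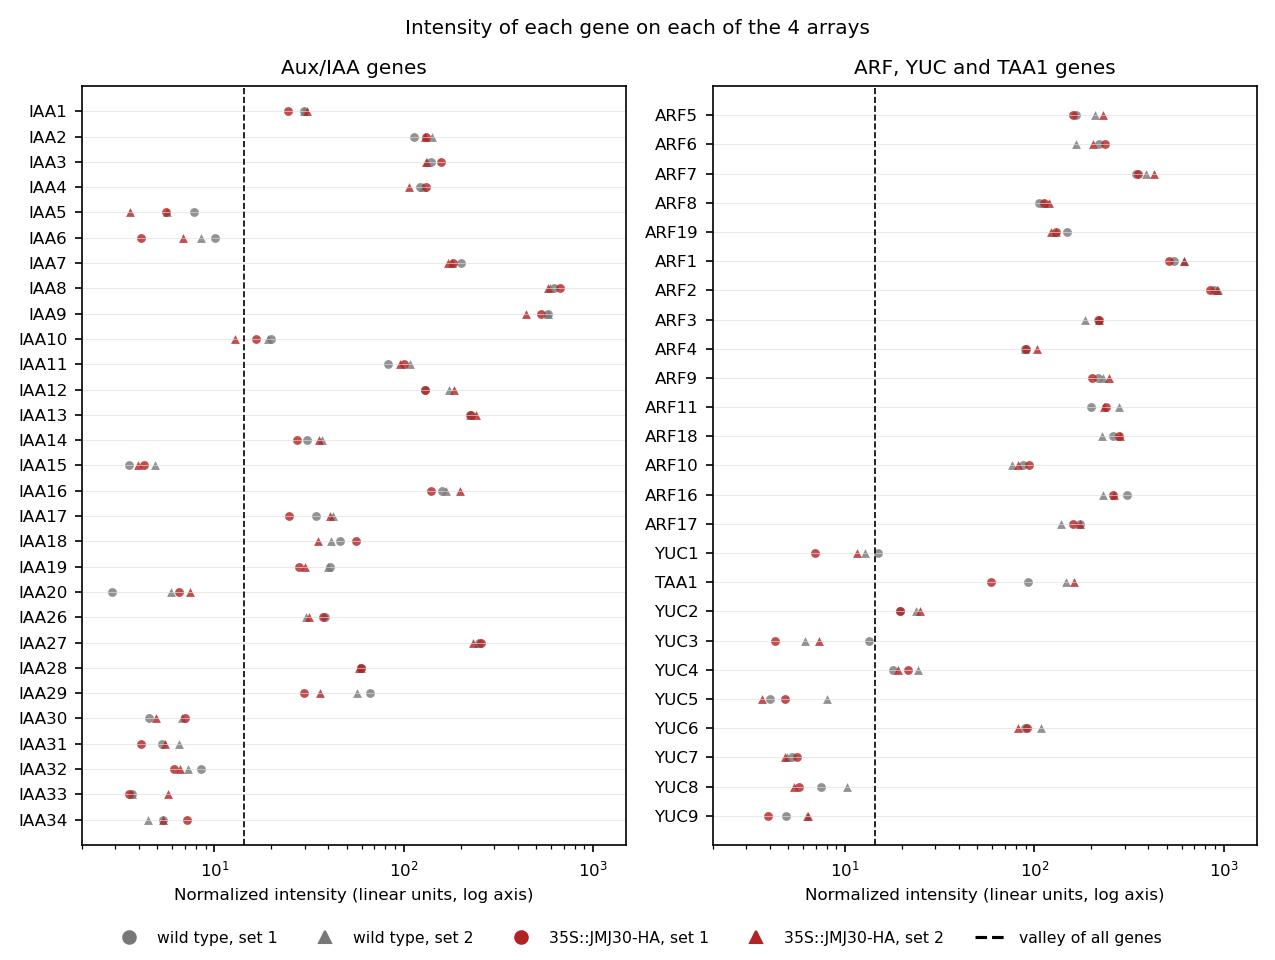
Normalized intensity (log axis) of each of the 54 genes on each of the 4 arrays, with grey symbols for the wild type, red for 35S::JMJ30-HA, circles for set 1 and triangles for set 2; the dashed line is the valley of all genes at 14.3. Red symbols lie left of both grey symbols at IAA19 and IAA29, the ARF symbols lie close together, and the TAA1 symbols spread from 58.9 to 162 by set. Readings of different genes come from different probes and are not an order of abundance.

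Among the Aux/IAA genes the clearest separation was at IAA29 (AT4G32280), an auxin-inducible gene that phytochrome-interacting factors also activate. It read 66.3 and 56.4 in wild-type seedlings and 29.6 and 36.2 in transgenic seedlings, or 61.3 ± 6.99 and 32.9 ± 4.68 (SD, n = 2 each). The transgenic readings were the 2 lowest, and their geometric mean was 53.5% of the wild-type geometric mean. On the log2 scale the gap was -0.90 ± 0.21 (SE), with -1.16 for set 1 and -0.64 for set 2, and an unadjusted 95% interval from -1.45 to -0.36. Of the 32627 genes 78 had a smaller p in limma, and the adjusted p was 1.0. IAA29 lies in a stretch of the locus order, from AT4G24000 on, where the arrays spread more. Its start was placed by a search in these same data, which always returns some point. The log2 differences of set 1 and set 2 disagreed with an SD of 0.60 from there on and 0.49 before it. With a separate variance prior for that stretch, an alternative added after the data had been seen, the bounds were -1.48 and -0.32. That stretch holds 17 of the 54 members, YUC8 among them.

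IAA19 (AT3G15540), in which stabilizing mutations impair the bending of hypocotyls towards light, gave the most even readings of the lower group. Its readings were 41.0 and 39.7 in wild-type seedlings and 28.0 and 30.1 in transgenic seedlings. Replicates differed by less than the genotypes did, at 40.4 ± 0.92 and 29.0 ± 1.46 (SD, n = 2 each). The transgenic geometric mean was 71.8% of the wild-type geometric mean. On the log2 scale the gap was -0.48 ± 0.18 (SE), with -0.55 for set 1 and -0.40 for set 2, and its interval from -0.94 to -0.012 came close to 0. IAA10 (AT1G04100) read 20.0 and 19.3 against 16.6 and 12.8, just above the valley. Both transgenic arrays were the lower ones, by 0.27 in set 1 and 0.60 in set 2 on the log2 scale, for a difference of -0.43 ± 0.22 (SE) that included 0 in its interval. In limma all 3 had an adjusted p of 1.0.

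IAA6 (AT1G52830) and IAA5 (AT1G15580), both early auxin-induced genes, read near background. IAA6 read 10.1 and 8.47 in wild-type seedlings and 4.12 and 6.79 in transgenic seedlings, a log2 difference of -0.80 ± 0.30 (SE) made of -1.29 in set 1 and -0.32 in set 2. IAA5 read 7.85 and 5.65 against 5.57 and 3.57, a log2 difference of -0.58 ± 0.31 (SE) with -0.50 and -0.66 in the sets. In both genes the transgenic arrays were the 2 lowest, but the gap at IAA5 between the lower wild-type array and the higher transgenic array was small. IAA20 (AT2G46990), also near background, went the other way at 2.87 and 5.88 against 6.50 and 7.45, a log2 difference of 0.76 ± 0.37 (SE). Its set 1 wild-type array stood low, and the difference was 1.18 in set 1 and 0.34 in set 2. At these levels a few units of intensity make a large ratio.

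The brightly read Aux/IAA genes showed smaller gaps. IAA8 (AT2G22670) read 626 and 592 in wild-type seedlings and 669 and 579 in transgenic seedlings, overlapping readings with a log2 difference of 0.03 ± 0.19 (SE). IAA9 (AT5G65670), whose tomato counterpart restrains fruit set, read 576 and 581 against 531 and 444. Both transgenic arrays were lower, mostly in set 2 (-0.12 in set 1 and -0.39 in set 2), with a log2 difference of -0.25 ± 0.20 (SE). The other 15 genes above the valley include IAA3 (SHY2), IAA7, IAA12 (BODENLOS), IAA14 (SOLITARY-ROOT), IAA17 (AXR3) and IAA28, repressors known from stabilized mutants with altered roots or embryos, and their log2 differences lay between -0.25 at IAA17 and 0.069 at IAA3. IAA28 differed least between arrays, at 59.8, 59.4, 59.4 and 57.8.

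Taken by set, 8 of the 20 Aux/IAA genes above the valley read lower in both sets and 0 read higher in both, where 25.4% and 24.1% of all genes above the valley did. The 8 were IAA7, IAA9, IAA10, IAA14, IAA17, IAA19, IAA28 and IAA29, and in the other 12 the sets had opposite signs. Of the 8, IAA9, IAA10, IAA19 and IAA29 had transgenic arrays below both wild-type arrays, 4 of 20 beside a background of 10.6%, and 0 of 20 had them above, beside 10.2%. These counts hold for the brightest models. The second model of IAA7, close to the valley, was higher in both sets (0.105 and 0.149), as was the first of IAA8 (0.011 and 0.008). The second model of IAA9 and the first of IAA12, the latter near background, were lower in both. The median log2 difference of these 20 genes was -0.021 and that of all 29 was -0.024, so the family as a whole sat close to the median of all genes, -0.0039. Family members are related in sequence and in control, so they are not independent of each other.

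The 9 Aux/IAA genes near background were IAA5, IAA6, IAA15, IAA20 and IAA30 to IAA34. They include all 6 members whose proteins lack, or carry an altered form of, the degron through which auxin receptors bind (IAA20 and IAA30 to IAA34). These 6 read between 2.87 and 8.47 on single arrays, and 2 were lower in both sets, 2 higher in both and 2 of opposite sign. IAA34 read 5.36 and 4.46 against 7.13 and 5.37, with the higher wild-type array and the lower transgenic array almost level. Readings this close to the lower mode carry little information on the transcript.

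Some Aux/IAA genes are neighbours on a chromosome. IAA3 and IAA17 lie next to each other with 0 coding genes between them, as do IAA2 and IAA7, and IAA14 and IAA1. IAA3 read 140 and 133 against 157 and 131, a log2 difference of 0.069 ± 0.20 (SE), while its neighbour IAA17 read 34.4 and 42.1 against 24.9 and 41.0, a difference of -0.25 ± 0.30 (SE). The low reading of IAA17 came from 1 array, the transgenic array of set 1, and set 2 differed by -0.037. IAA2 and IAA7 differed by 0.043 and -0.11, and IAA14 and IAA1 by -0.12 and -0.11, all with intervals that included 0.

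**Figure D2:**
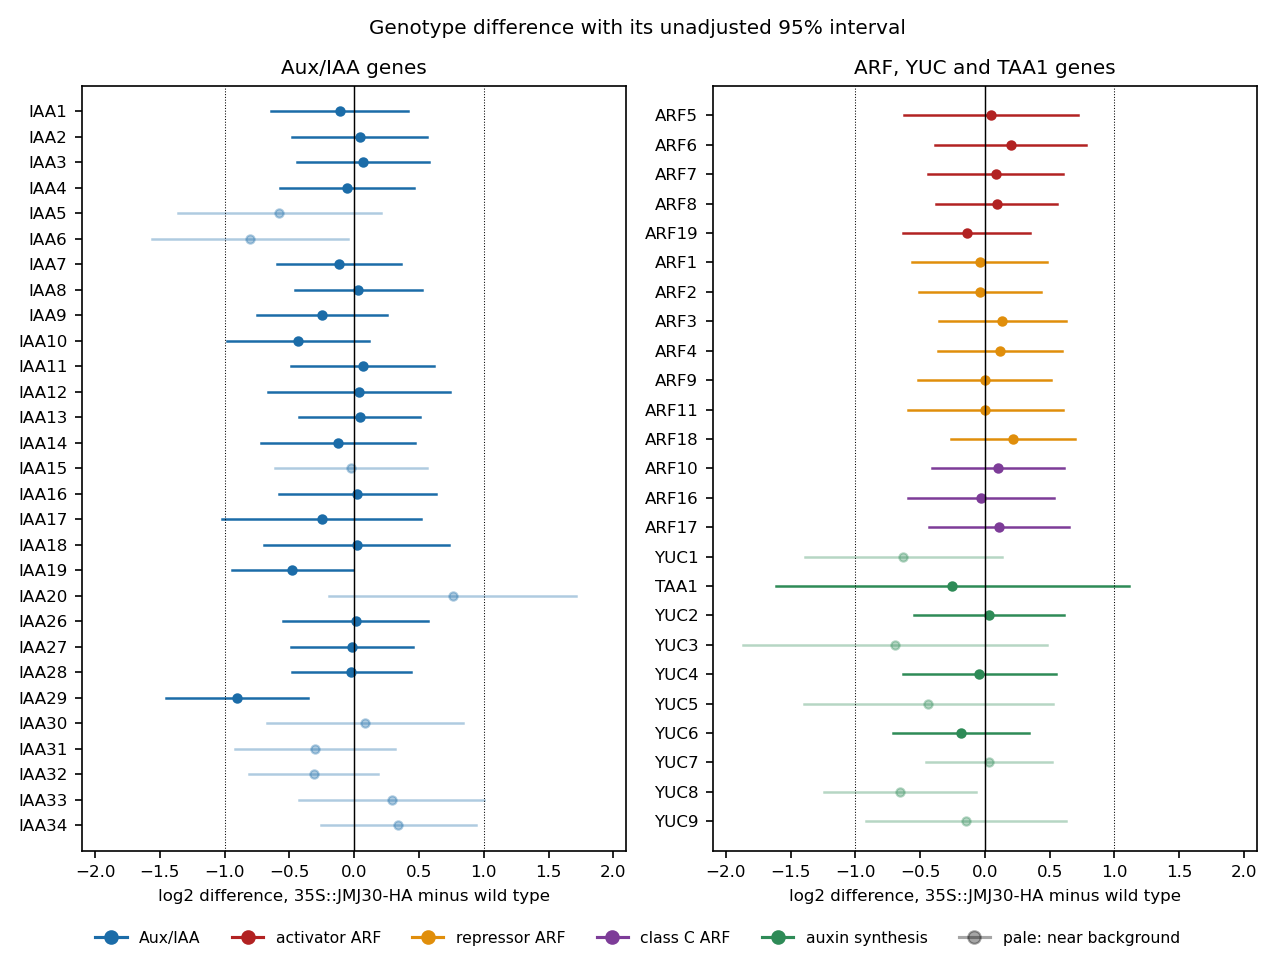
Log2 difference between genotypes (35S::JMJ30-HA minus wild type) for each of the 54 genes, with its unadjusted 95% interval from limma; dotted lines mark 2-fold differences and pale symbols genes near background. The intervals of IAA6, IAA19, IAA29 and YUC8 lie below 0, all 15 ARF intervals lie between -0.63 and 0.78, and TAA1 has the widest interval above the valley.

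All 15 ARF genes read above the valley, and none was called between genotypes, as for all genes. Their log2 differences ran from -0.14 at ARF19 to 0.22 at ARF18, with 5 below 0 and 10 above. Every one of the 15 intervals stayed within 2-fold, where 85.9% of all genes above the valley did. The medians were 0.083 for the 5 activators (ARF5 to ARF8 and ARF19), 0.0038 for the 7 repressors of the ARF1 and ARF9 type, and 0.10 for the 3 class C genes ARF10, ARF16 and ARF17, with none of the 3 classes holding a called gene. Standard errors of the 15 single genes were 0.18 to 0.26 on the log2 scale. The error of a class median was not computed, so no difference between the classes is claimed.

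Of the activators, ARF7 (AT5G20730, NPH4) and ARF19 (AT1G19220) act together in lateral root formation. ARF7 read 345 and 387 in wild-type seedlings and 352 and 426 in transgenic seedlings, with overlapping readings that followed the sets more than the genotypes. Its log2 difference was 0.083 ± 0.21 (SE), with an interval from -0.44 to 0.61. ARF19 read 149 and 130 against 130 and 122, the transgenic arrays level with or below the lower wild-type array. It differed by -0.14 ± 0.19 (SE) on the log2 scale, by -0.19 and -0.090 within the sets, with an interval from -0.63 to 0.35.

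ARF6 (AT1G30330) and ARF8 (AT5G37020), which promote hypocotyl elongation and flower maturation, read slightly higher in both sets. ARF6 read 219 and 166 against 237 and 203, a log2 difference of 0.20 ± 0.23 (SE) in which the wild type of set 1 exceeded the transgenic array of set 2. ARF8 read 106 and 113 against 113 and 120, a difference of 0.090 ± 0.18 (SE) with the sets almost equal at 0.092 and 0.088. ARF5 (AT1G19850, MONOPTEROS), needed for the embryonic root and for veins, read 165 and 210 against 160 and 229. Its readings split by set and not by genotype, and the genotype difference was 0.045 ± 0.26 (SE).

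Of the repressors, ARF2 (AT5G62000), which limits organ and seed size, read 886 and 930 in wild-type seedlings and 848 and 919 in transgenic seedlings, overlapping readings with a log2 difference of -0.039 ± 0.18 (SE). ARF18 (AT3G61830) read 259 and 227 against 281 and 282. Both transgenic readings were the higher ones, and the log2 difference was 0.22 ± 0.19 (SE) with an interval from -0.26 to 0.70. ARF3 (AT2G33860, ETTIN) and ARF4 (AT5G60450), which specify the lower side of leaves and are cleaved through the same small RNAs, also had transgenic arrays above the wild type. ARF3 read 216 and 186 against 220 and 220, and ARF4 read 89.2 and 89.1 against 90.8 and 103. Their log2 differences were 0.13 ± 0.19 (SE) and 0.12 ± 0.19 (SE), smaller than the error. ARF11 (AT2G46530) read 199 and 279 against 240 and 232, with opposite signs in the sets (0.27 and -0.26) that cancelled to 0.0038.

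The class C genes ARF10 (AT2G28350), ARF16 (AT4G30080) and ARF17 (AT1G77850) share a microRNA that cleaves their transcripts. ARF10 read 87.5 and 76.2 against 94.0 and 81.9, higher by like amounts in set 1 (0.10) and set 2 (0.11) although the genotypes overlapped. ARF16 read 309 and 231 against 260 and 264, and ARF17 read 174 and 138 against 160 and 175. The wild-type readings of ARF16 lay on either side of both transgenic ones, the ranges of ARF17 overlapped, and in both genes the sets differed in sign. The log2 differences were 0.10 ± 0.20, -0.030 ± 0.22 and 0.11 ± 0.21 (SE), in the order ARF10, ARF16, ARF17.

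**Figure D3:**
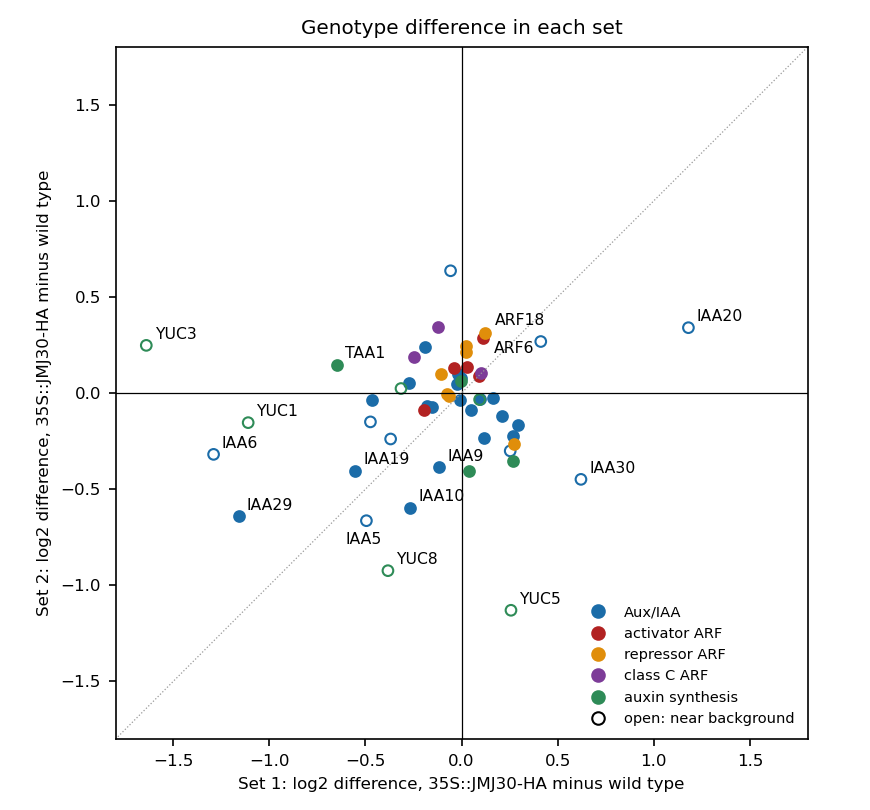
Log2 difference between genotypes in set 1 (x axis) and in set 2 (y axis) for each of the 54 genes, 1 array per genotype in each set; colours mark the classes, open symbols genes near background, and the dotted diagonal marks equal differences. At the lower left lie 17 genes, among them IAA29 at -1.16 and -0.64, at the upper right 9, and 28 differ in sign between the sets.

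In both sets 17 of the 54 members read lower in the transgenic line and 9 read higher, where 25.5% and 24.7% of all genes did. Besides the Aux/IAA genes already named, the 17 were IAA5, IAA6, IAA31 and IAA32 among the dim family members, ARF1, ARF2 and ARF19 among the ARF genes, and YUC1 and YUC8. The 9 were IAA20 and IAA34 and the ARF genes ARF3, ARF4, ARF6, ARF7, ARF8, ARF10 and ARF18. Directions alone say nothing of size, and of the 7 ARF genes in that group each had an interval that included 0.

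Among the synthesis genes, 4 of 10 read above the valley: TAA1, YUC2, YUC4 and YUC6. Those 4 had a median log2 difference of -0.11 and the 6 near background one of -0.53. YUC6 (AT5G25620) read 89.5 and 108 in wild-type seedlings and 91.8 and 81.6 in transgenic seedlings, overlapping readings with a log2 difference of -0.18 ± 0.21 (SE), 0.038 in set 1 and -0.40 in set 2. YUC2 (AT4G13260) read 19.6 and 23.8 against 19.5 and 24.9, and YUC4 (AT5G11320) 17.9 and 24.3 against 21.6 and 19.0. With YUC1, the genes YUC2, YUC4 and YUC6 form the group that acts in leaves and flowers. The differences of YUC2 and YUC4 were 0.030 ± 0.23 and -0.044 ± 0.23 (SE).

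YUC8 (AT4G28720), which warmth and shade activate in seedlings, read 7.44 and 10.2 in wild-type seedlings and 5.70 and 5.38 in transgenic seedlings. Both transgenic arrays were lower, but all 4 readings were near background. Its log2 gap of -0.65 ± 0.23 (SE) was made of -0.38 in set 1 and -0.92 in set 2, and it did not pass limma over all genes (adjusted p = 1.0). YUC1 (AT4G32540) read 15.0 and 12.8 against 6.97 and 11.5, with its wild-type mean of 13.9 just under the valley. Most of its log2 difference of -0.63 ± 0.30 (SE) came from set 1 (-1.11, against -0.15 in set 2). YUC3 (AT1G04610) read 13.3 and 6.12 against 4.25 and 7.26, with a high wild-type array in set 1 and opposite signs in the sets (-1.64 and 0.25). YUC5, YUC7 and YUC9, which act mainly in roots, read between 3.64 and 7.99 on single arrays.

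TAA1 (AT1G70560), the aminotransferase of the first step, read differently by set more than by genotype. It read 92.4 in set 1 and 146 in set 2 in wild-type seedlings, and 58.9 and 162 in transgenic seedlings. Set 2 was higher in both genotypes, by 0.66 and 1.46 on the log2 scale, and the genotype difference of -0.25 ± 0.53 (SE) combined -0.65 in set 1 with 0.15 in set 2. In a limma fit with genotype and replicate number as terms, set 2 exceeded set 1 by 1.06 ± 0.25 (SE) at TAA1 (adjusted p = 0.203 over all genes). With genes of a mean log2 of at least 4 the adjusted p was 0.0196, with log2(value + 16) it was 0.0365, and with trend and robust settings 6.11e-11, while quantile normalization, the mean of the models and the lowest-numbered model gave 0.208 to 0.216. Whether TAA1 counts as different between the sets therefore depended on these choices. With so few arrays, the p-values of this fit rest mostly on the spread borrowed from all genes by limma.

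**Figure D4:**
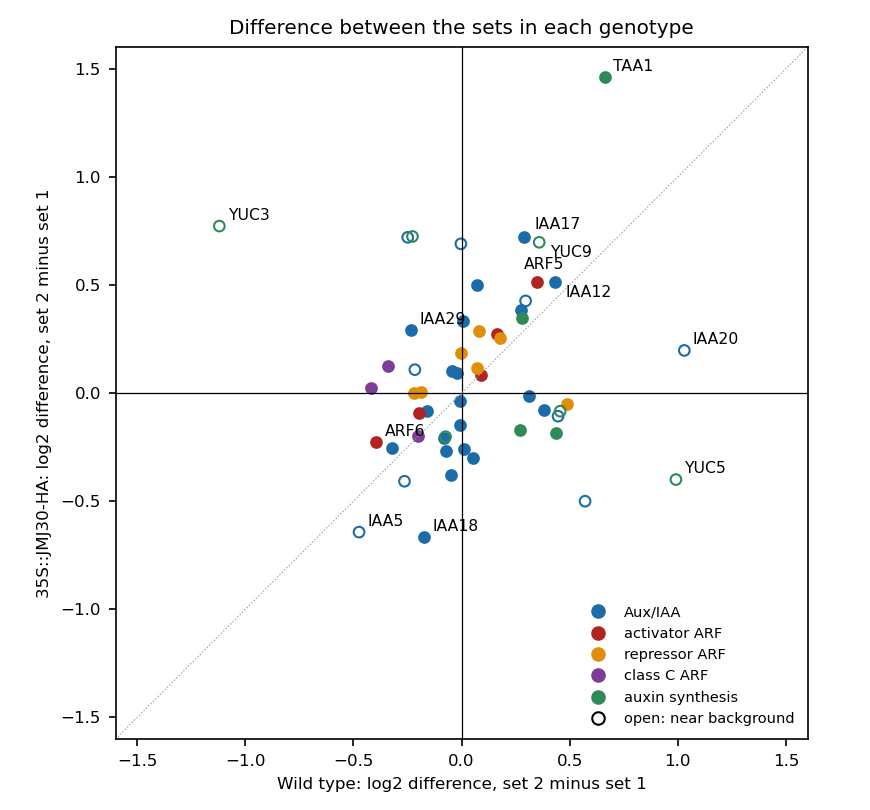
Log2 difference between the sets (set 2 minus set 1) in the wild type (x axis) and in 35S::JMJ30-HA (y axis) for each of the 54 genes, 1 array per set in each genotype; colours mark the classes and open symbols genes near background. TAA1 lies at 0.66 and 1.46, and IAA12, IAA17 and ARF5 also lie above 0 on both axes, whereas YUC3 and YUC5 differ in sign between genotypes.

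The sets differed by more than the genotypes in 33 of the 54 members, where 62.2% of all genes did. In the replicate term of limma 0 members were called, beside 0.0123% of all genes (4 of 32627), and 5 members had an unadjusted p below 0.05 (IAA5, IAA12, IAA17, YUC9 and TAA1) beside 15.5% of all genes. IAA12 (AT1G04550), which pairs with ARF5 in the embryo, read 129 in set 1 and 174 in set 2 in wild-type seedlings, and 129 and 184 in transgenic seedlings. ARF5 showed the same pattern, with set differences of 0.35 and 0.51 against 0.43 and 0.51 at IAA12, in the order wild type and transgenic line. IAA12 was called with log2(value + 16) (adjusted p = 0.0468) and with trend and robust settings (adjusted p = 0.0058), ARF5 with the latter alone (adjusted p = 0.0092). The set difference of IAA12, 0.47 with its brightest model, was 0.33 with the mean of both models and 0.19 with the lowest-numbered one (adjusted p = 0.63), which was near background. All genes called between the sets made up 5.68% with log2(value + 16), 10.9% with a mean log2 of at least 4 and 10.9% with trend and robust settings. Set 2 was higher in both genotypes for 16 members and lower in both for 14, beside 32.3% and 30.1% of all genes. What a set shared is not stated, so its part in these readings was not tested.

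Several members had more than 1 transcript model on the array, and the brightest stood for the gene above. Of 13 further models in 11 genes, 8 had the sign of the model used and 5 were near background. The second model of IAA9 read 548 and 518 against 505 and 495, a smaller gap (-0.093) in the same direction. The models of ARF7 differed by 0.18, 0.083 and 0.047, all above 0, and the second model of ARF2 read 910 and 922 against 815 and 796 (-0.19). Models of opposite sign were the second of IAA7, the first of IAA12, IAA13 and IAA32, and the second of YUC4. At IAA7 the model used differed by -0.11 and the other, close to the valley, by 0.13. The other models of opposite sign were near background. At IAA32 the differences were -0.31 for the model used, also near background, and 0.47 for the other, and at YUC4 -0.044 and 0.92.

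The other steps of the pathway also held no called gene: 0 of 57 further genes passed limma, beside 0% of all genes. An unadjusted p below 0.05 in limma was found for 0 of the 57, beside 2.99% of all genes, a share too small for 57 genes to show a lack. Of the 57, 30 were lower and 27 higher, beside 50.8% and 49.2% of all genes, with a median log2 difference of -0.016. The 6 receptor genes of the TIR1 and AFB family differed by -0.046 to 0.068, and all of their intervals lay between -0.54 and 0.58. TIR1 read 779 and 653 against 779 and 717, and AFB2 322 and 290 against 314 and 279. Among the 5 TOPLESS corepressor genes (2 lower, 3 higher, median 0.14), TPL read 334 and 343 against 358 and 392, both transgenic arrays being higher, and TPR1 259 and 332 against 354 and 312, where the low reading was the wild type of set 1. The log2 differences were 0.14 ± 0.18 for TPL and 0.18 ± 0.22 (SE) for TPR1.

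Of 4 further synthesis genes 1 was lower and 3 higher. TAR2, a TAA1 relative, read 67.6 and 131 against 109 and 127, again with a low wild-type array in set 1, and TAR1 was near background with 1 high array (6.75 and 4.48 against 19.0 and 4.86). The 8 remaining ARF genes, most of them in a cluster on chromosome 1 known for expression in seeds, were all near background (6 lower, 2 higher), with ARF12 at 3.39 and 3.86 against 2.61 and 3.07 and ARF21 at 4.22 and 5.48 against 3.4 and 4.12. GH3 enzymes join auxin to amino acids, and with 2 further oxidation genes this list of 10 split 5 to 5. GH3.3 read 51.1 and 36.9 against 68.8 and 49.4, higher in both sets by 0.43 and 0.42 on the log2 scale although the readings overlapped. GH3.1 was near background at 3.88 and 4.77 against 4.90 and 9.61.

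Of 12 transport genes 4 were lower and 8 higher, with a median of 0.076. LAX1, an uptake carrier, read 506 and 406 against 392 and 415, and PIN8, of the efflux family, was near background at 4.58 and 4.60 against 8.48 and 4.78. Of 12 SAUR and HD-ZIP output genes 9 were lower and 3 higher, with a median of -0.11, while 7 of the 12 had an unadjusted p below 0.05 between the sets, beside 15.5% of all genes. Of the 12 genes 9 lie in the stretch from AT4G24000 on where the arrays spread more, among them 6 of those 7, and 4 of the 6 (SAUR21 to SAUR24) belong to a single tandem cluster. SAUR10 was near background at 4.73 and 4.46 against 3.80 and 3.44, and SAUR63 read 15.5 and 13.6 against 15.9 and 23.2. The markers with the largest statistics were SHR (48.9 and 72.2 against 71.1 and 84.4) and WOX5 for root, LHCA1 (1625 and 1783 against 1201 and 1467) and YAB1 for leaf, and WUS and AP1, both near background, for apex and flower. No marker had an unadjusted p below 0.05 between genotypes, beside 2.99% of all genes, and their part in the auxin gene readings was not tested.

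**Figure D5:**
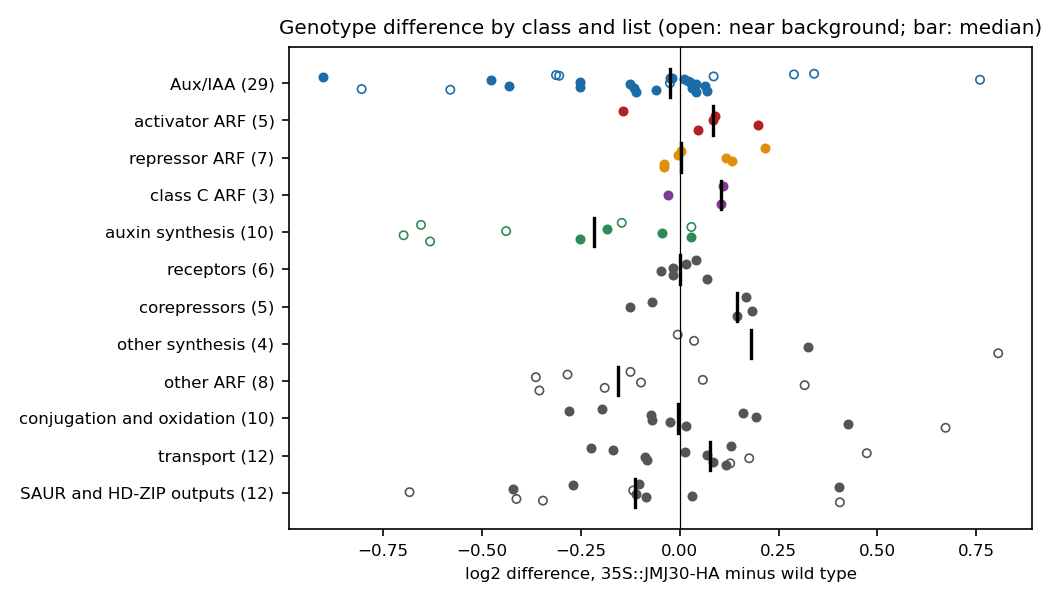
Log2 difference between genotypes (35S::JMJ30-HA minus wild type) of each gene by class and by further auxin list, with the number of genes in brackets; open symbols are near background and bars are medians. Medians lie between -0.22 for auxin synthesis and 0.18 for other synthesis, and the dim genes spread most.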

How the data were processed

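The deposited table holds a linear, between-array normalized intensity for each of 37118 transcript models, which the authors made with RMA, per the submitters' processing notes, version and settings not given in the sources used here. They range from 1.5 to 4400, all above 0, so log2 was computed without a pseudocount. The brightest model stood for each of 32627 genes. All 54 members were found in the NCBI gene table of TAIR10.1, 8 under another symbol; no coordinates or sequences are given, as the files name no build. No count depth applies, and the number of arrays limits the precision.

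The comparison of genotypes used lmFit and eBayes of limma 3.58.1 (R 4.3.3), two-sided, with genotype as the only term. It was checked on simulated data that held no difference between the sets, so the check does not cover such a difference. P-values measure the spread between extracts labelled biological replicates, which without the replicate block includes any difference between the sets. Values after "against" are the transgenic line, in the order set 1, set 2. No value was dropped or imputed.

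The members and lists were chosen with earlier results of these data known. Named in full were IAA29, YUC8, ARF7, ARF19 and TAA1, in each class the 3 members largest in absolute moderated t (6 for Aux/IAA), the brightest and the one with the largest set difference, and in each list the 2 genes largest in that t; genes outside this rule were chosen after their values were seen. Alternatives were the replicate block, single arrays left out, other model choices, log2(value + 16), a minimum mean log2 of 4, quantile normalization, trend and robust settings, and a variance prior in 2 parts. Plots were drawn with matplotlib 3.10.9.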

Additional observations from a re-analysis of the deposited data

How the results depend on the processing

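With 2 arrays per genotype, small differences could not be resolved, and readings near background carry little information. Both genotypes carry replicate numbers 1 and 2. Deviations of same-numbered arrays correlated at 0.42 over all genes and at 0.69 over the 17481 with a mean log2 of at least 4; genes are not independent replicates. With the replicate block 0 genes and 0 members were called between genotypes, 6 members had an unadjusted p below 0.05 (6.01% of all genes), and the lowest adjusted p of a member was 0.825. Genes called between genotypes numbered 1 with a mean log2 of at least 4, 1 under trend and robust settings and 3 under the block with that minimum, none of them a member. With that minimum 11 members, in place of 17, read lower in both sets, fewer genes being tested. Genes called between replicate numbers went from 4 to 1852 with log2(value + 16), 1913 with the minimum and 3553 with trend and robust settings, and to 0 with the mean of models, the lowest-numbered model and quantile normalization; 2, 1 and 3 members were called under the first 3, and the cause was not tested. The synthesis median was -0.14 with log2(value + 16), and -0.11 with the minimum, with or without the block, when only 4 genes remained.

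Without 1 array a set holds a single genotype, so those values carry the difference between sets, and the lone array is assumed to vary like the other genotype. No gene was called in any such fit. Medians then ran from -0.12 to -0.028 for Aux/IAA, -0.044 to 0.13 for repressor ARF, -0.053 to 0.14 for activator ARF, -0.059 to 0.20 for class C ARF (negative without wild-type replicate 2) and -0.37 to 0.013 for synthesis genes, turning positive without wild-type replicate 2. Of 300 alternatives of the 24 named members 288 kept direction and side of the threshold; 12 turned direction, all with an array left out. Sizes moved more. With log2(value + 16), which shrinks dim genes, IAA6 went from -0.80 to -0.24, IAA20 from 0.76 to 0.18, IAA5 from -0.58 to -0.15, YUC8 from -0.65 to -0.20, YUC1 from -0.63 to -0.25, YUC3 from -0.70 to -0.23 and IAA10 from -0.43 to -0.22. With an array left out IAA5 ran from -0.90 to -0.26, IAA6 from -1.16 to -0.44, IAA20 from 0.24 to 1.28, IAA10 from -0.62 to -0.24, YUC1 from -0.99 to -0.27, YUC3 from -1.26 to -0.14 and ARF6 from 0.0014 to 0.40. The ranges were -0.24 to 0.25 for ARF11 (-0.24 without wild-type replicate 1 and -0.021 without transgenic replicate 1), -0.24 to 0.18 for ARF16, -0.059 to 0.28 for ARF17, -0.098 to 0.019 for ARF2, -0.21 to 0.30 for ARF5, -0.053 to 0.22 for ARF7, -0.072 to 0.14 for IAA8 and -0.98 to 0.48 for TAA1. Without transgenic replicate 1 turned ARF11, ARF2, IAA8 and TAA1; without transgenic replicate 2 ARF5 and ARF7; without wild-type replicate 1 ARF11, ARF16 and ARF5; and without wild-type replicate 2 ARF17, IAA8 and TAA1. No named member was called between genotypes under any alternative, and the lowest adjusted p was 0.776.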
